A study of Mus musculus with 4 samples.

Results

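Metallothioneins, the metal-sensing factor MTF1 and the transporters that move zinc across membranes were measured in dendritic cells, which present antigen to T cells, cultured from the bone marrow of C57BL/6 mice. The genes were a list of 10: Mt1, Mt2, Mtf1, the exporters Slc30a1, Slc30a4 and Slc30a7, and the importers Slc39a1, Slc39a6, Slc39a10 and Slc39a14. A gene was read from the array's probe set annotated with its symbol alone, which was found for 9 of the 10 among 22180 genes with such a probe set. Slc30a1 had none, because both of its probe sets also carry the symbol of a second gene. The cells were harvested on day 7 of culture and kept for 2 h with 0.3 µM sulforaphane in DMSO, or with DMSO alone. Sulforaphane is a plant isothiocyanate and a known activator of NRF2, a transcription factor of redox defence. Every culture, controls included, then received 100 ng/ml E. coli lipopolysaccharide (LPS), the ligand of TLR4, for 1 h. Each treatment had 2 arrays, and no array of cells without LPS was analysed here. The labels do not say whether replicates came from separate mice or cultures, so the p-values reflect the spread among these samples alone, and that spread may be technical.

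Metallothioneins are small cysteine-rich proteins that bind zinc and copper in the cytosol and take up surplus or displaced metal. Free zinc activates MTF1, which binds metal response elements and raises transcription of metallothioneins and of the plasma membrane exporter Slc30a1. ZnT proteins (Slc30a) move zinc out of the cytosol into vesicles or out of the cell, and ZIP proteins (Slc39a) move it into the cytosol. In myeloid cells LPS is known to alter the balance of ZIP and ZnT transcripts, and metallothionein genes also respond to electrophiles such as those that activate NRF2.

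The deposited values were on a log2 scale, with array medians between 3.24 and 3.27. DMSO replicate 1 was the array least like the others, its interquartile range being 3.41 where the other arrays had 3.61 to 3.62. The dendritic cell genes tested were above the filter on low values (a mean log2 value of 2.91), at unlike levels. Itgax was at 11.26 to 11.33 and H2-Ab1 at 11.37 to 11.81 over the arrays. Zbtb46 was lower, at 5.95 to 6.44, and Flt3 was at 4.34 to 4.95. Macrophage and granulocyte genes were present too, such as Csf1r at 11.19 to 11.26 and Mpo at 8.81 to 9.20. Mast cell and basophil genes ranged from Cpa3 at 9.88 to 10.07 to Fcer1a at 3.61 to 3.71, with Tpsb2 below the filter. Of the 5 B cell markers listed, 3 were above the filter (DMSO means of 4.27 for Cd79b, 3.80 for Cd79a and 3.36 for Pax5) and Ms4a1 was below it. Of the 6 T and NK cell markers listed, 2 were above it (6.11 for Nkg7 and 3.15 for Cd3e), and Cd3d, Cd3g and Ncr1 were below it.

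The promoter windows of RefSeq (GRCm38.p6) show which of the genes carry the binding letters of MTF1 and NRF2 near their annotated start. A window ran from 250 bases before the start to 50 after it and was found for 8 of the 10 genes, with Slc39a6 and Slc39a14 unmatched. The core of the metal response element was searched as TGCACNC or TGCGCNC, and that of the antioxidant response element bound by NRF2 as TGACNNNGC, each on both strands. The metal core was found in 4 of the 8 genes, against 25.7% of all 32851 windows. It stood at 4 places in Mt2, at 3 in Mt1 and in Slc30a4, and at 2 in Slc30a1. At least 2 matches were present in 7.11% of all windows. The antioxidant core was found once each in Mt2, Slc30a1 and Slc39a1, against 12.4% of all windows. Mt2 and Slc30a1 held both cores, as did 3.43% of all windows. No 2 matches overlapped in these genes.

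The 250 bases upstream of the annotated start are printed for Mt1, Mt2 and Slc30a1, the established targets of MTF1, on the plus strand. They lie at chr8:94178839-94179088 for Mt1, chr8:94172368-94172617 for Mt2 and chr1:191906531-191906780 for Slc30a1. Capitals mark the matches to either core, and positions count from the annotated start as 0. In Mt2 the metal cores begin at -223, -128 and -50 from the start and the antioxidant core at -79. In Slc30a1 the antioxidant core begins at -82 and the metal core at -43. In Mt1 the metal core begins at -23, and its other matches, at 2 and 20, lie past the annotated start and outside the printed bases. A match describes letters in a window and does not show binding. The matches found depend on where the start is annotated. Bases more than 50 past that start were not searched, so cores of Mt1 or another gene there would be missed.
Mt1: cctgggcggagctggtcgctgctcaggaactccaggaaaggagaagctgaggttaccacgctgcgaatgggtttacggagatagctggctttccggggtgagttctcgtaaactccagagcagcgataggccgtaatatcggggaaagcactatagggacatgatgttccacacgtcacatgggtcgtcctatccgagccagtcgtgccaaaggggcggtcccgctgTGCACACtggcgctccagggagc
Mt2: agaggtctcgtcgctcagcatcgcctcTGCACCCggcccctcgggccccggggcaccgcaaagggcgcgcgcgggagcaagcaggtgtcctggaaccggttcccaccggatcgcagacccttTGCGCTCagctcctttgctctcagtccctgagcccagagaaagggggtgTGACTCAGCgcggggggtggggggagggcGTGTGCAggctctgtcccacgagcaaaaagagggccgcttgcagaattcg
Slc30a1: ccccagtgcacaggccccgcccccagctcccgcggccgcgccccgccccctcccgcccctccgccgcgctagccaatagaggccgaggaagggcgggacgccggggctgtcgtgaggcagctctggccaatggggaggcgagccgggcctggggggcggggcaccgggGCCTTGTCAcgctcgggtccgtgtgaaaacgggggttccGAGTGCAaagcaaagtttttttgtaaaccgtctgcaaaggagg

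**Figure D1:**
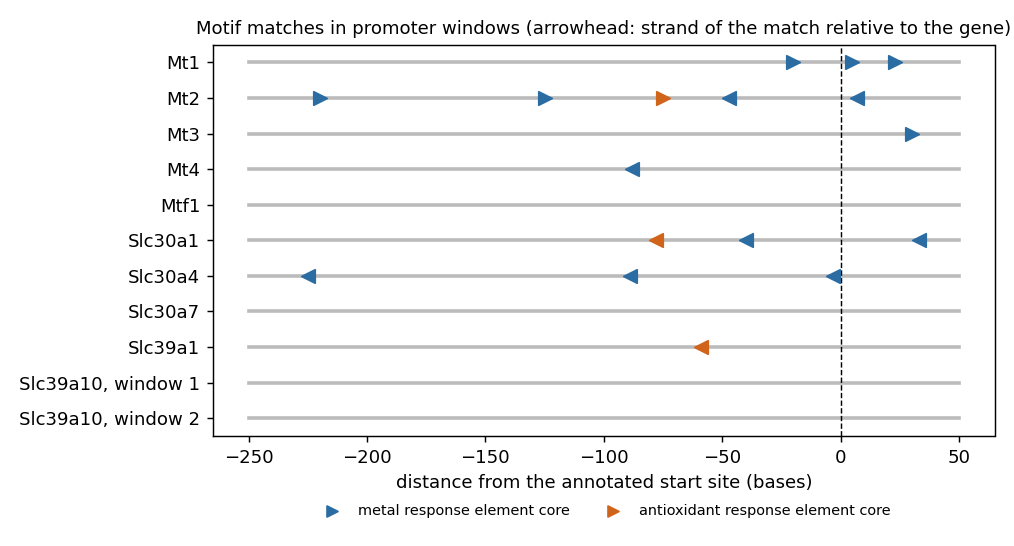
Positions of motif matches in the promoter windows of 8 of the listed genes and of Mt3 and Mt4, with the distance from the annotated start in bases on the horizontal axis. Blue arrowheads are metal response element cores, orange ones antioxidant response element cores, and Mt1, Mt2, Slc30a1 and Slc30a4 are the listed genes with blue marks.

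Slc39a14, an importer of zinc that also carries iron and manganese, was 1.74-fold lower in sulforaphane-treated cells, and the other 8 genes measured differed by at most 1.19-fold. None of the 9 passed the threshold, an adjusted p under 0.05 by limma over the 14652 genes tested. In that fit 19 genes, or 0.130%, were called, 9 of them higher (0.0614%) and 10 lower (0.0683%). That split was 34 and 72 after a second quantile normalization, and 41 and 102 with each array centred on the median of the genes tested. At an unadjusted p under 0.05, 1 of the 9 genes was found, which was Slc39a14, against 13.0% of all genes. The arrays of the treatments did not overlap in 5 of the 9 (2 higher and 3 lower), against 43.6% of all genes (24.0% higher and 19.5% lower). The median log2 difference of the 9 was -0.035, beside 0.018 over all genes tested. All 9 lay above the filter, and each had 1 probe set. With 2 arrays per treatment, the smallest two-sided p of an exact permutation test is 0.333.

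**Figure D2:**
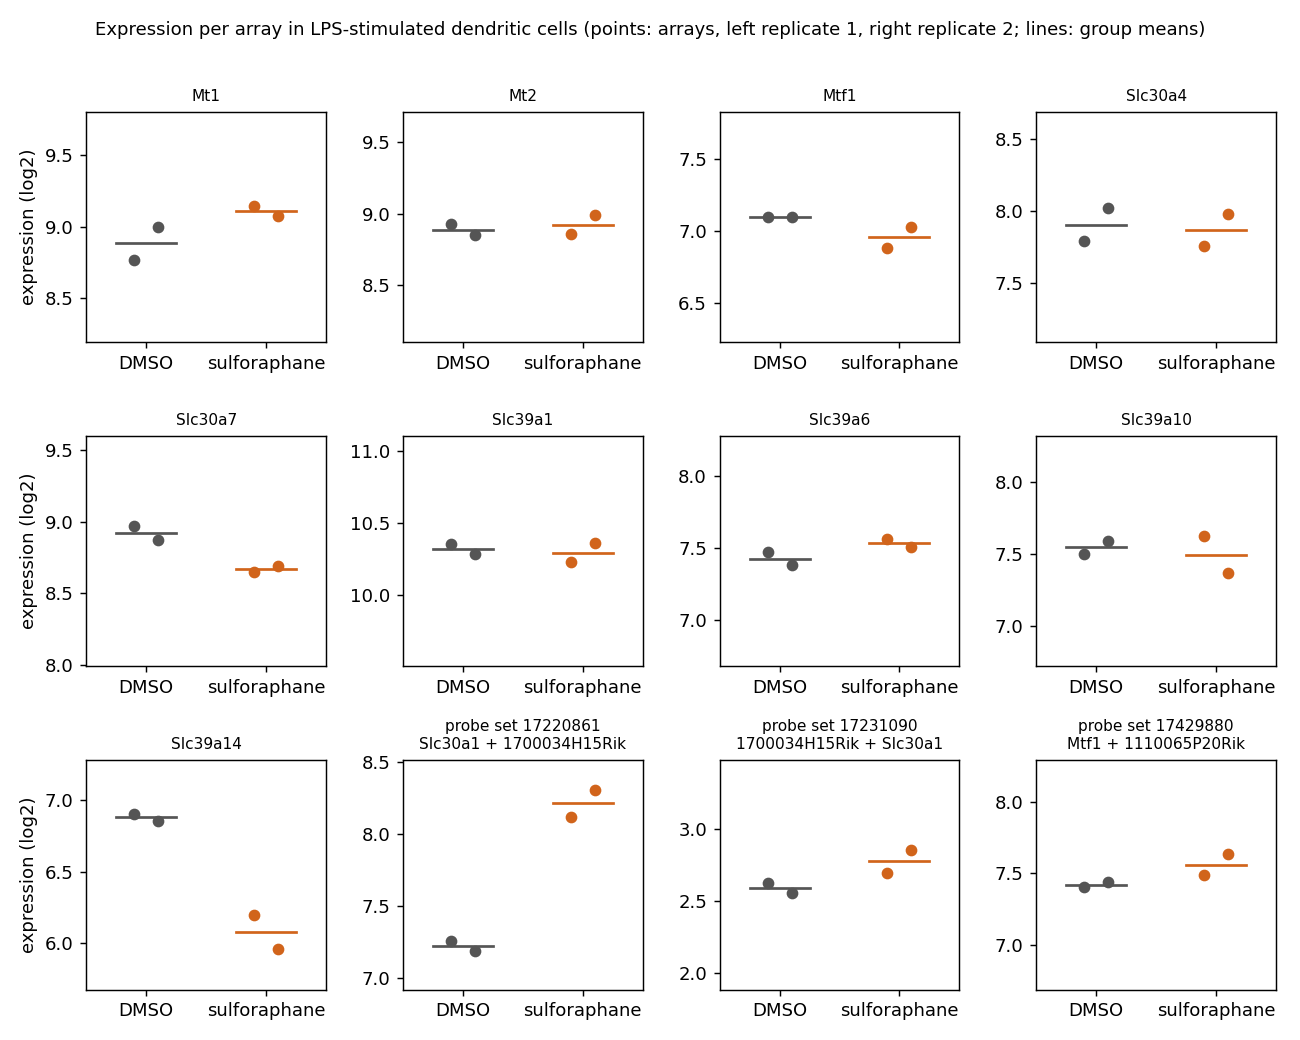
Expression on the log2 scale (vertical axis, the same span in every panel) per array for DMSO (grey) and sulforaphane (orange), with lines at group means, for the 9 genes and for 3 probe sets that list 2 symbols. Slc39a14 lies near 6.9 in DMSO and near 6.1 after sulforaphane, and the probe set 17220861 near 7.2 and 8.2.

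The metallothioneins differed little between the treatments. Mt1 was at 8.77 and 8.998 on the log2 scale in the DMSO arrays and at 9.14 and 9.07 in the sulforaphane arrays. Both sulforaphane arrays were above both DMSO arrays, by a gap of 0.074 that was smaller than the distance between the DMSO arrays. The difference of Mt1 was 0.22 ± 0.12 SE (moderated standard error) on the log2 scale (95% interval -0.08 to 0.53, adjusted p = 0.524 by limma, n = 2 per group). It was 0.11 without DMSO replicate 1, the array with the narrower range, and 0.34 without DMSO replicate 2. Mt2, the neighbouring gene with more of the searched cores in its window, was at 8.92 and 8.85 in DMSO and at 8.86 and 8.99 after sulforaphane. The arrays of the treatments overlapped for Mt2. Its difference was 0.037 ± 0.11 (-0.24 to 0.31, adjusted p = 0.934), and it was -0.026 with each array centred on the median of the genes tested. In the fit of all 4 arrays the upper bounds of these intervals correspond to 1.44-fold for Mt1 and 1.24-fold for Mt2. An induction as large as 1.5-fold thus lay outside both intervals of that fit. The bound of Mt1 depends on the arrays used, as its difference moved to 0.34 without DMSO replicate 2.

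Mtf1, the zinc finger factor that senses free zinc, was slightly lower in both sulforaphane arrays. It was at 7.10 in each DMSO array and at 6.89 and 7.03 after sulforaphane. The treatments did not overlap, with a gap of 0.069, and the difference was -0.14 ± 0.11 SE (-0.42 to 0.13, adjusted p = 0.667 by limma). A second probe set, 17429880, lists Mtf1 together with 1110065P20Rik, a gene that overlaps Mtf1 in RefSeq. Its values were 7.41 and 7.44 in DMSO and 7.49 and 7.63 after sulforaphane, a difference of 0.14 ± 0.12 (-0.14 to 0.42). The 2 probe sets thus lay on opposite sides of 0, and neither passed the threshold. Which of the 2 genes gives the signal of 17429880 was not tested, so it is not read as a value of Mtf1.

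The exporters read from their own probe sets lay close to 0 or a little below it. Slc30a7, which loads zinc into the early secretory pathway, was at 8.97 and 8.87 in DMSO and at 8.65 and 8.69 after sulforaphane. Both sulforaphane arrays lay below both DMSO arrays by 0.18, more than the distance between arrays of the same treatment. Its difference of -0.25 ± 0.11 SE (-0.51 to 0.015) did not pass the threshold, with an adjusted p of 0.407 by limma. Slc30a4, which fills vesicles with zinc and secretes it into milk, was at 7.79 and 8.02 in DMSO and at 7.76 and 7.98 after sulforaphane. Its arrays paired by replicate number rather than by treatment, and the difference was -0.035 ± 0.14 (-0.37 to 0.30, adjusted p = 0.951).

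Slc30a1, the zinc exporter of the plasma membrane, has no value of its own. The probe sets 17220861 and 17231090 list it together with 1700034H15Rik, a long noncoding RNA gene that overlaps it in RefSeq, and their signal is not assigned to either gene here. The probe set 17220861 was at 7.25 and 7.19 in DMSO and at 8.12 and 8.30 after sulforaphane. Both sulforaphane arrays were far above both DMSO arrays, and the difference of 0.99 ± 0.12 SE (0.70 to 1.29) is 1.99-fold. When all 16597 listed probe sets above the filter were tested on their own, a fit chosen after seeing the data, its adjusted p was 0.0618 by limma and did not pass. The unadjusted p of 17220861 by limma was 0.000164, rank 42 in that fit, where the adjusted p of Slc39a14 was 0.0917. The probe set 17231090 was at 2.62 and 2.55 in DMSO and at 2.69 and 2.85 after sulforaphane, below the filter.

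Slc39a14 had the largest difference of the 9 listed genes with a probe set of their own. It was at 6.90 and 6.85 in the DMSO arrays and at 6.20 and 5.96 in the sulforaphane arrays. The sulforaphane arrays lay below the DMSO arrays by at least 0.66, while arrays of the same treatment were within 0.24 of each other. The difference was -0.80 ± 0.13 SE on the log2 scale (95% interval -1.10 to -0.49), which is 1.74-fold with an interval from 1.41-fold to 2.15-fold. The unadjusted p was 0.000696, rank 124 of 14652 genes, and the adjusted p of 0.0822 by limma missed the threshold. At least 1.5-fold lower without overlap, as Slc39a14 was, were 1.49% of all genes. The gene passed with the filter at the 60th percentile (adjusted p = 0.0457 by limma), with an intensity trend in eBayes (0.0299) and with centring on the median of the genes tested (0.0440). More genes were called at large in these settings, at 1.3%, 1.7% and 0.976% in that order, against 0.130% as reported. The centring was added after seeing the data. With single arrays left out the difference ran from -0.92 to -0.68, with adjusted p from 0.108 to 0.435.

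Beside Slc39a14, marker genes of dendritic cells and of other cell types had these values. Macrophage and monocyte markers lay below 0 in 8 of 9 tested (median -0.12), with a summed linear level of 12975 to 14685 in DMSO and 13114 to 13438 after sulforaphane. Mast cell and basophil markers lay below 0 in 6 of 7 tested (median -0.070), and their summed level of 1793 to 1923 after sulforaphane was below the 1973 to 2029 of DMSO. Tpsb2 of that list was below the filter. Dendritic cell markers split into 6 above and 5 below 0, and the parts differed in size. All 5 below 0 were lower without overlap. That is 5 of the 11 tested, against 19.5% of all genes, where 2863 of the 6714 below 0 did not overlap. All 5 had an unadjusted p under 0.05, though none passed the threshold by limma. They were the transcription factors Irf4 (-0.87, rank 46 by p and so ahead of Slc39a14), Batf3 (-0.64) and Zbtb46 (-0.34), the class II activator Ciita (-0.46) and the cytokine receptor Flt3 (-0.42). The 6 above 0 differed by at most 0.26, and 3 of them did not overlap either. That is 3 of the 11 tested, against 24.0% of all genes, where 3521 of the 7938 above 0 did not overlap. The list's median of 0.011 and its summed level of 11858 to 12956 in DMSO and 12630 to 12963 after sulforaphane do not show this split. The count with an unadjusted p under 0.05 was 5 of 11 for dendritic cell markers, 2 of 9 for macrophage, 2 of 7 for mast cell and 1 of 10 for granulocyte markers, beside the 13.0% of all genes. Granulocyte markers split into 7 above and 3 below 0 (median 0.043), with a summed level of 8419 to 9559 in DMSO and 8690 to 9395 after sulforaphane. B cell markers lay below 0 in 3 of 3 tested (median -0.27), T and NK cell markers in 2 of 2 (median -0.17), and stromal and erythroid markers above 0 in 2 of 2 (median 0.092). Their summed levels were 41.1 to 46.2, 71.0 to 85.3 and 18.3 to 20.3 in DMSO and 30.4 to 44.8, 67.9 to 73.5 and 20.5 to 20.8 after sulforaphane, in that order. The part of these cell types in the value of Slc39a14 was not tested. In such bulk samples, fewer cells of a type and less RNA per cell cannot be told apart.

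**Figure D3:**
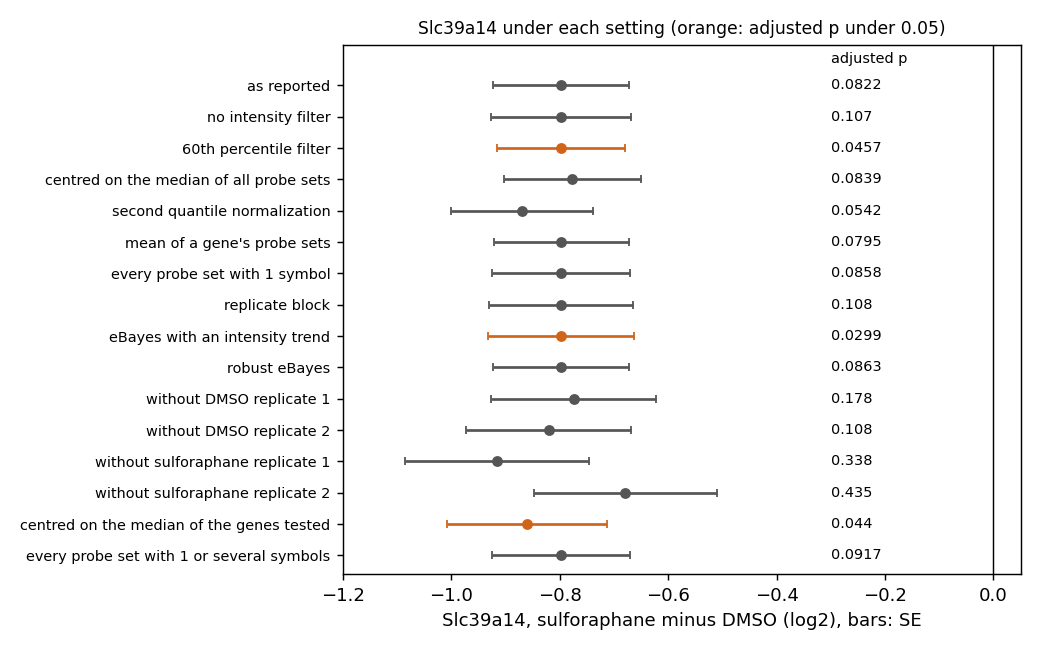
Log2 difference of Slc39a14 (horizontal axis, bars are SE) under the reported setting and 15 alternatives, with the adjusted p beside each. All 16 values lie below 0, between -0.92 and -0.68, and 3 alternatives (orange) reach an adjusted p under 0.05.

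The other importers of the list did not share that size. Slc39a1, a zinc importer of the plasma membrane found in most tissues, was at 10.35 and 10.28 in DMSO and at 10.23 and 10.36 after sulforaphane, so the treatments overlapped. Its difference was -0.024 ± 0.11 SE (-0.30 to 0.25). Slc39a6 and Slc39a10 are related proteins that can pair in the plasma membrane. Slc39a6, which has been studied in dendritic cells as an LPS-regulated importer, was at 7.47 and 7.38 in DMSO and at 7.56 and 7.51 after sulforaphane. Both sulforaphane arrays were above both DMSO arrays by 0.035, and the difference was 0.11 ± 0.11 (-0.16 to 0.37, adjusted p = 0.751 by limma). Slc39a10, a gene that MTF1 is known to repress when zinc is plentiful, was at 7.50 and 7.60 in DMSO and at 7.63 and 7.37 after sulforaphane. The sulforaphane arrays lay on both sides of the DMSO arrays, and the difference was -0.052 ± 0.13 (-0.37 to 0.27). Whether Slc39a14 differed from these importers in its response was not tested.

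**Figure D4:**
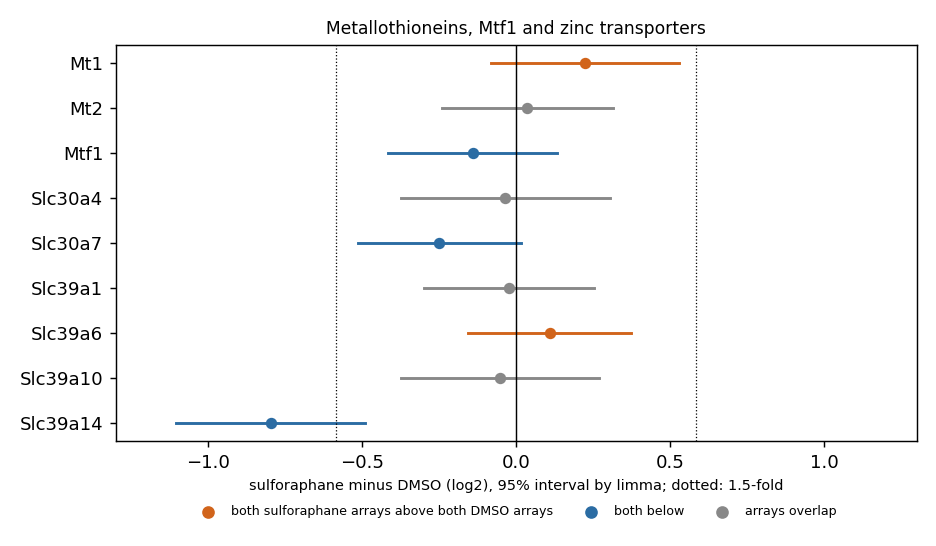
Log2 difference between sulforaphane and DMSO (horizontal axis) with its 95% interval by limma for the 9 genes, coloured by whether both sulforaphane arrays were above, below or overlapping the DMSO arrays. The interval of Slc39a14 lies wholly below 0, and the other 8 cross 0 and stay within the dotted lines at 1.5-fold.

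For 8 of the 9 genes the whole 95% interval lay within 1.5-fold either way, against 74.1% of all genes tested. The exception was Slc39a14. The widest reach from 0 among these 8 intervals was 0.53 on the log2 scale, in Mt1.

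The rest of zinc, copper and related metal handling gave 27 tested genes of 33 listed, and none passed the threshold by limma. Of these, 15 lay above 0 and 12 below, with a median of 0.029 beside 0.018 over all genes tested. An unadjusted p under 0.05 by limma was reached by 1 of the 27, against 13.0% of all genes. That gene was Slc11a1, the divalent metal transporter of phagosomes. Slc11a1 was at 10.33 and 10.58 in DMSO and at 10.85 and 10.82 after sulforaphane, a difference of 0.38 ± 0.13 SE (0.07 to 0.69, adjusted p = 0.300). Both sulforaphane arrays were above both DMSO arrays, and the lower of the DMSO values was that of DMSO replicate 1. Slc11a2, the transporter of divalent iron, differed by -0.0074 (-0.29 to 0.27).

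Among the other importers, 10 of 10 were tested and none passed, with 4 above and 6 below 0 and differences from -0.25 to 0.14. Slc39a7, which releases zinc from the endoplasmic reticulum, differed by -0.12 (-0.42 to 0.18), and Slc39a9 by 0.14 (-0.13 to 0.40). Slc39a8, the closest relative of Slc39a14 and outside the rule for naming genes, was named after its values were seen. It was at 4.68 and 4.87 in DMSO and at 4.49 and 4.78 after sulforaphane. The treatments overlapped, and its difference was -0.14 ± 0.14 SE (-0.49 to 0.21). Of the 7 other exporters 5 were tested, with 3 above and 2 below 0. Slc30a5 and Slc30a6, which form 1 complex in the secretory pathway, differed by 0.10 (-0.22 to 0.42) and -0.20 (-0.47 to 0.057), with intervals that overlap.

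Mt3, the metallothionein best known from brain, was at 5.05 and 4.90 in DMSO and at 4.85 and 4.80 after sulforaphane, a difference of -0.15 (-0.43 to 0.13), and Mt4 was below the filter. Mt4, Mt3, Mt2 and Mt1 lie in that order on chromosome 8. Of 10 genes of copper handling 7 were tested, and none passed, with 5 above and 2 below 0. Slc31a2, a vesicular copper transporter, differed by -0.12 (-0.40 to 0.16) and the copper chaperone Atox1 by 0.096 (-0.31 to 0.51). S100a8 and S100a9, which form calprotectin, the zinc-binding protein of granulocytes, differed by 0.25 (-0.22 to 0.71) and 0.052 (-0.22 to 0.33). S100a8 was at 10.47 in DMSO replicate 1 against 10.88 to 11.07 in the other arrays.

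**Figure D5:**
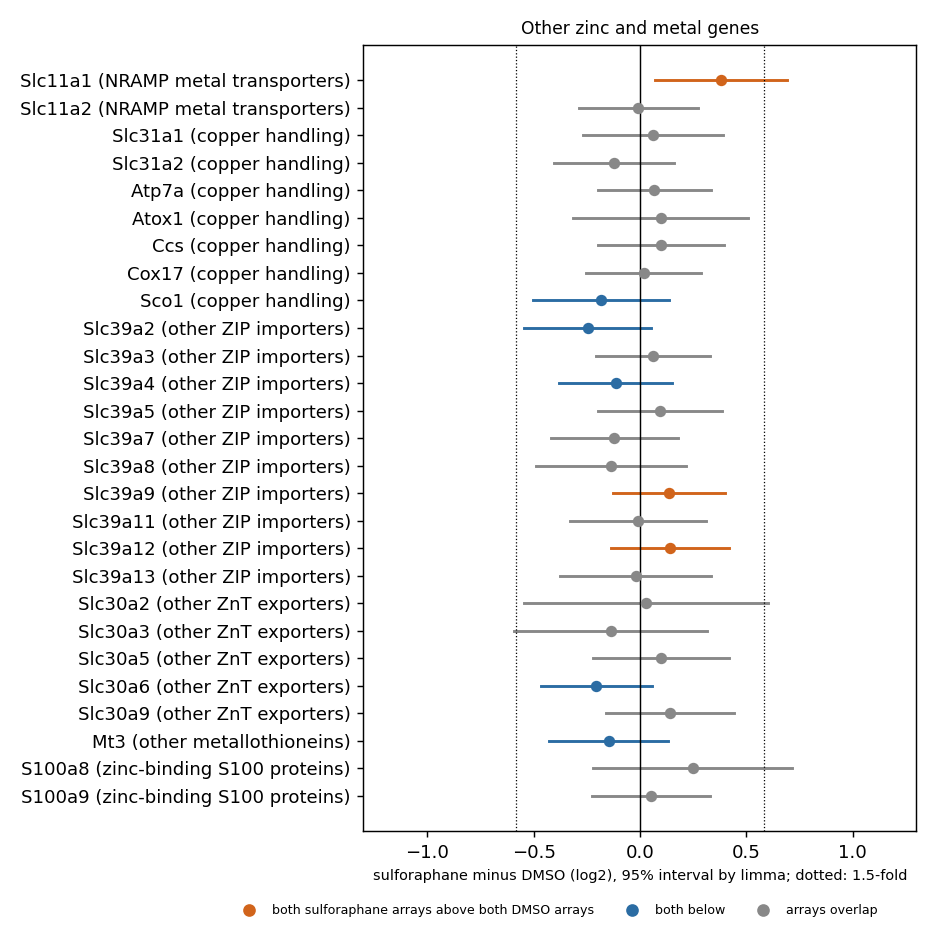
Log2 difference between sulforaphane and DMSO (horizontal axis) with its 95% interval by limma for 27 other genes of zinc, copper and related metal handling, coloured as in the plot of the listed genes. Only the interval of Slc11a1 does not cross 0, and no point lies past the dotted lines at 1.5-fold.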

How the data were processed

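Total RNA of 4 samples was labelled with biotin and hybridised to Affymetrix arrays, per the labels' protocols. The authors deposited log2 values; the submitters' processing notes name RMA and R 2.15.1. RMA corrects background, brings the arrays to 1 distribution by quantiles and combines the probes of a probe set. The table names no log base, and base 2 was inferred from RMA and the range of the values. The sources used here give no filter or genome build. Of 41345 probe sets a platform annotation lists 25335, of which 23521 have 1 symbol and 1814 several.

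For each gene the probe set of highest mean was kept. Genes whose mean exceeded the 40th percentile over probe sets were tested with limma 3.58.1 (lmFit and eBayes, R 4.3.3; 2 residual and 4.02 prior degrees of freedom) with no block, adjusted by Benjamini-Hochberg at 0.05. The fit was run on simulated data with known shifts. Only the mean estimated difference was held to a limit there. The numbers of shifted and unshifted genes called were recorded, but no limit was set on wrong or missed calls. The number of arrays limits the precision. Members, lists and tests were chosen with earlier results of these data known. All listed genes were named, and of the other metal genes those with an unadjusted p under 0.05 and up to 2 more per list with the highest mean. The 13 planned and 2 added alternatives varied filter, scaling, probe sets, block, variance prior and arrays.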

Additional observations from a re-analysis of the deposited data

Results flagged for a closer look

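The probe set 17220861, which lists Slc30a1 and 1700034H15Rik and so enters no comparison of single genes, was 0.99 higher on the log2 scale in the sulforaphane arrays than in the DMSO arrays, and its difference ran from 0.90 to 1.08 with single arrays left out. It was flagged for lying outside the genes compared, with both sulforaphane arrays above every control array and a difference of at least 1.5-fold. Lying above every control array is common by itself. It held for 24.0% of all genes tested and for the probe sets 17231090 and 17429880 as well. The share of genes that were also at least 1.5-fold higher was not counted. Which of the genes gives the signal of 17220861 was not tested.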

How the results depend on the processing

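The count of genes called moved from 19 to 138 with the filter at the 60th percentile, 106 after a second quantile normalization, 34 with probe sets averaged per gene, 249 with an intensity trend, 143 with centring on the median of the genes tested (added after seeing the data), 8 with the replicate block, and 0 without any 1 array (0 to 0), when 1036 to 2850 genes had an unadjusted p under 0.05 by limma. The cause was not tested. With an array left out, a treatment has 1 array, assumed to vary like the other group. The count of listed genes called lower went from 0 to 1 with the 60th percentile filter, the intensity trend and that centring, each time Slc39a14. The listed genes called higher stayed at 0 in all 15 alternatives. Both counts cover the 9 genes with a probe set of their own, and Slc30a1 could not enter them in any setting. The replicate block changed no call of a listed gene. The labels give only shared numbers, and the deviations of same-numbered arrays correlated at -0.081 across genes. With averaged probe sets the split was 11 higher and 23 lower. With single arrays left out, Mt2 ran from -0.030 to 0.10, Slc30a4 from -0.15 to 0.080, Slc39a1 from -0.092 to 0.043 and Slc39a10 from -0.18 to 0.078, each turning sign. Mt2 was also -0.026 with that centring. Mt1, Mtf1, Slc30a7, Slc39a6 and Slc39a14 kept their sign in all 15 alternatives.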
